A study of Rattus norvegicus with 12 samples.

Results

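Tagln, which encodes the actin-binding protein transgelin of smooth muscle, was examined in primary rat oligodendrocyte precursor cells (OPCs) together with 9 further genes of the actin cytoskeleton. These were the transgelin paralog Tagln2, the smooth-muscle actin gene Acta2, the calponins Cnn1 and Cnn3, the tropomyosins Tpm1 and Tpm2, the regulatory myosin light chain Myl9, and the cytoplasmic actins Actb and Actg1. The 10 genes were chosen by symbol, out of 30562 rows of the count table, to set genes typical of contractile cells beside general actin genes. The measured value in the rule was the total count, by which the row with most reads is taken for a repeated symbol, and each of the 10 symbols had a single row. The choice was made with earlier results of these libraries known, so the differences below are not independent evidence for the list.

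The study compared OPCs kept under mild hypoxia (mild-hypo-OPCs, 6 libraries) with OPCs kept in room air (standard OPCs, 6 libraries) by bulk RNA-seq, to ask how mild hypoxic preconditioning changes cultured OPCs. The mild-hypo-OPC labels give an oxygen fraction (FiO2) of 5% for 6 hours, whereas the methods of the study give 6 days. All cells were wild type, from cerebral cortices of Sprague-Dawley rats at postnatal day 1 or 2. They were shaken off mixed glial cultures, passed over uncoated dishes to remove astrocytes and microglia, and grown with FGF-2, PDGF-AA and B27. The labels do not say which libraries came from separate cultures, and the study's description of these data counts 3 biological replicates per group where 6 libraries are labelled. Libraries of a group may therefore share a culture, and every SD, standard error and p-value over n = 6 measures the spread between libraries, which may be technical in part.

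Every cell builds filaments from cytoplasmic actin, and OPCs use a branched actin network to extend processes. Smooth-muscle cells, pericytes and myofibroblasts add a contractile apparatus of smooth-muscle actin, calponin, transgelin, tropomyosin and myosin II, whose force is switched on when the regulatory light chain is phosphorylated. Many genes of this apparatus, and the cytoplasmic actins too, are targets of serum response factor (SRF) and its myocardin-family partners, which bind the CArG box. A culture of purified OPCs can carry a few such cells from vessels or meninges. In bulk libraries, fewer cells of a type and less RNA per cell cannot be told apart.

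Total counts ranged from 4111669 to 9022324 in the mild-hypo-OPC group but only 1356079 to 2797513 in the standard group, so depth differed with the condition and its part in the differences cannot be told apart from that of oxygen. Levels are given as CPM, the count relative to the library total after scaling with the TMM factors of edgeR, not divided by gene length, so they are compared between libraries and not between genes. The TMM factors were 1.08 to 1.23 in mild-hypo-OPC libraries and 0.809 to 0.945 in standard OPC libraries. The scaling thus differed with the condition as well, and results with library size only are given beside it. Genes with over 10 unscaled CPM in at least 1 library were tested (8938 genes, 7 of the 10 members). A gene is called where edgeR's quasi-likelihood test gives an adjusted p under 0.05 over all genes tested, and log2 fold changes are mild-hypo-OPC relative to standard OPC. Of the 12 OPC markers examined, all 12 were tested, and their summed level was 3980 to 4940 CPM in room air and 4780 to 5430 CPM under mild hypoxia. Of these markers 4 rose, Gpr17, Neu4, Bcan and Nkx2-2, and the calls of Neu4 and Nkx2-2 were lost in 10 and 8 of the 12 fits without 1 library. Over all genes 7.00% were called higher. Scaled by library size only, 11 of the markers were called higher.

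Tagln (ENSRNOG00000017628) was the single member that rose. Its level in the 6 mild-hypo-OPC libraries was 26.11 CPM at the lowest, 28.06 at the median and 41.85 at the highest, and in the 6 standard OPC libraries 15.57, 21.3 and 25.95. The groups did not overlap, although the lowest mild-hypo-OPC library lay only just above the highest standard OPC library. The same complete separation was seen with upper-quartile scaling, RLE scaling and library size only. With library size only it was not particular to Tagln, since Actb and Actg1 separated completely too. Actb was 0.693% to 0.822% of the total count under mild hypoxia and 0.41% to 0.637% in room air. Actg1 was 0.284% to 0.363% and 0.185% to 0.269%. The means were 30.1 ± 5.91 CPM (SD, n = 6) and 21.1 ± 3.61 CPM (SD, n = 6). The fitted log2 difference was 0.53 ± 0.15 (SE, adjusted p = 0.0124 by edgeR's quasi-likelihood test), or 1.44-fold with a 95% interval from 1.17 to 1.78. These values rested on 146 to 264 counts a library under mild hypoxia and 25 to 52 in room air. Mild-hypo-OPC replicate 6 stood above the rest of its group, and without it the log2 fold change was 0.44 (adjusted p = 0.0119, edgeR). The call held without each of the 12 libraries in turn. It was lost in replicates 1 to 3 alone (0.51, adjusted p = 0.0867, edgeR), in replicates 4 to 6 alone (0.54, adjusted p = 0.0723, edgeR) and once the log2 total count was added to the model (0.84, adjusted p = 0.307, edgeR). In that last fit the standard error was 0.286 and 0 of 8938 genes were called higher. Tagln was higher there at an unadjusted p under 0.05 (edgeR).

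**Figure D1:**
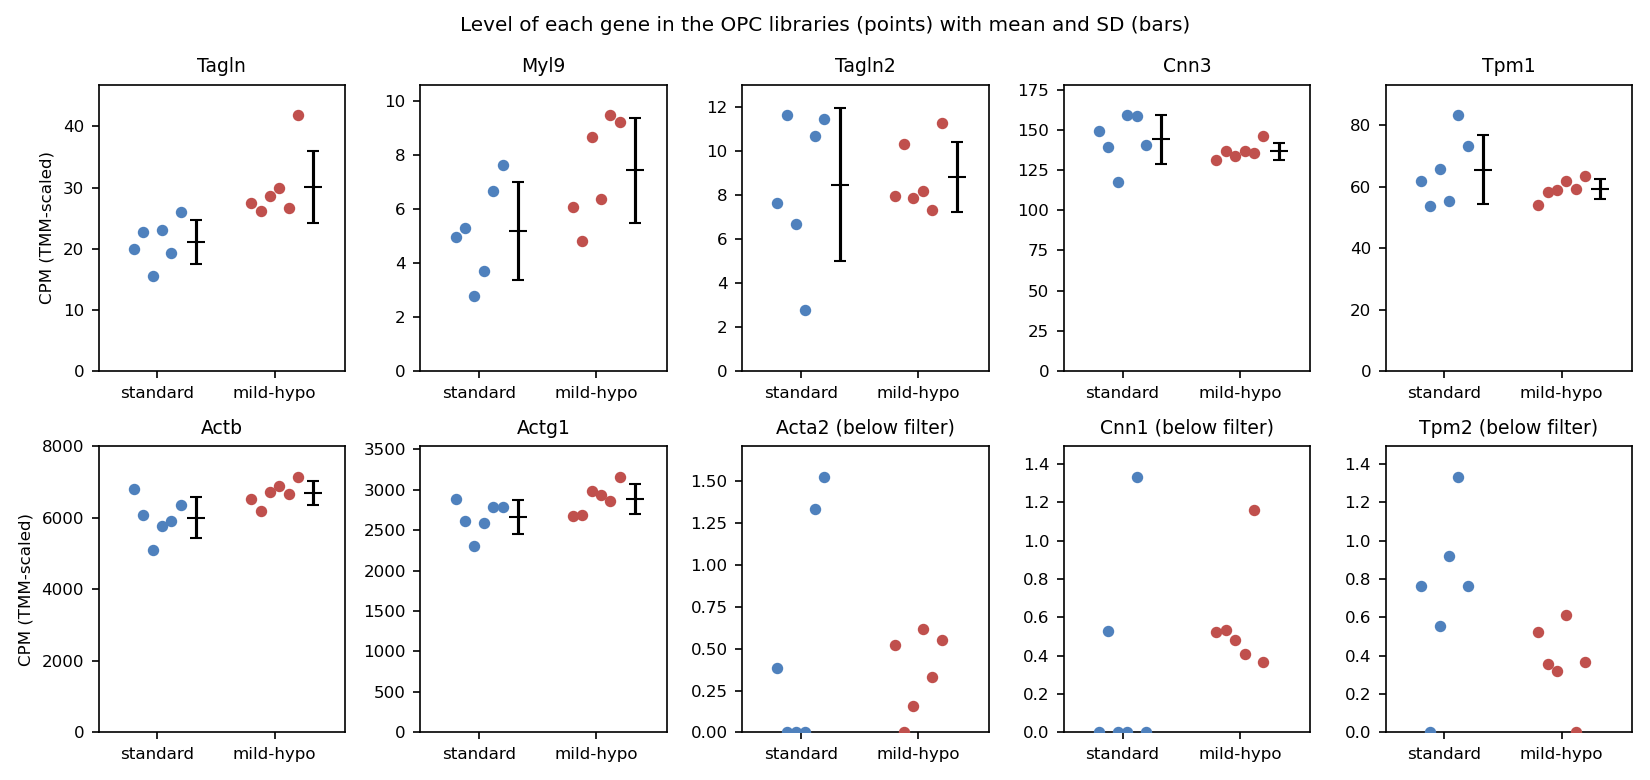
TMM-scaled CPM (vertical axes, linear from 0) of the 10 genes in each of the 6 standard OPC (blue) and 6 mild-hypo-OPC (red) libraries, with the mean and SD beside the points of the 7 tested genes and no mean for the 3 genes below the filter. The groups are separate for Tagln, with mild-hypo-OPC replicate 6 at 41.85 CPM, and overlap for the other 9 genes.

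Myl9 (ENSRNOG00000020246), the regulatory light chain that smooth-muscle and non-muscle myosin II share, had nearly the same fitted change as Tagln with a wider error. It lay at 4.80, 7.51 and 9.46 CPM (lowest, median and highest) in mild-hypo-OPCs and at 2.78, 5.13 and 7.63 CPM in standard OPCs, with 27 to 58 and 4 to 13 counts a library. The groups overlapped, with 3 of 6 mild-hypo-OPC libraries above every standard OPC library. Its log2 fold change of 0.53 (standard error 0.27, 95% interval -0.03 to 1.09, adjusted p = 0.160, edgeR) did not exceed the variation within the groups by this test. Myl9 was also not called by limma-voom (adjusted p = 0.256) or DESeq2 (adjusted p = 0.142).

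Tagln2 (ENSRNOG00000008301), the paralog found in many cell types outside smooth muscle, had a fitted change near zero. Its level was 7.30, 8.06 and 11.25 CPM (lowest, median and highest) in mild-hypo-OPCs and 2.76, 9.16 and 11.62 CPM in standard OPCs. The mild-hypo-OPC libraries all fell inside the range of the standard OPC libraries, whose lowest value came from 3 counts. The log2 fold change was 0.02 (standard error 0.23, 95% interval -0.45 to 0.49, adjusted p = 0.960, edgeR), an interval whose upper end is just under the change fitted for Tagln and Myl9. Tagln2 and Myl9 passed the filter in 2 mild-hypo-OPC libraries each and in 0 standard OPC libraries, so their place among the tested genes depended on the deeper group.

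The most restricted smooth-muscle genes of the set were close to the limit of detection in every library. Acta2 (ENSRNOG00000058039) had 0 to 5 counts a library under mild hypoxia and 0 to 2 in room air, 14 and 5 counts in all. Cnn1 (ENSRNOG00000027736), the calponin of differentiated smooth muscle, had 2 to 7 and 0 to 2 counts, 22 and 3 in all. Tpm2 (ENSRNOG00000016731), the beta-tropomyosin of muscle, had 0 to 5 and 0 to 2 counts, 14 and 7 in all. A count of 0 allows up to 3 counts, which is 0.313 to 0.615 CPM in mild-hypo-OPC libraries and 1.15 to 2.76 CPM in standard OPC libraries.

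Pooled over libraries and divided by the total count, Acta2 gave 0.422 unscaled CPM under mild hypoxia and 0.42 in room air, a ratio of 1.01 with an exact 95% interval from 0.342 to 3.57. The ratio was 2.64 for Cnn1 (0.792 to 13.8) and 0.719 for Tpm2 (0.271 to 2.1). All 3 intervals hold a ratio of no change on this unscaled measure and also changes larger than that of Tagln. A difference of that size was therefore not detectable at this depth. With library size only, Tagln was at a log2 fold change of 0.96 and the median of all genes at 0.43. No change on this measure thus lies below that median. These intervals cover counting error only. Fitted without the filter, over 17391 genes, the log2 fold changes were -0.36 for Acta2, 0.94 for Cnn1 and -0.82 for Tpm2 (adjusted p = 0.799, 0.513 and 0.505, edgeR).

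The other rows of the actin family were as sparse. The skeletal-muscle actin Acta1 had 5 counts in all mild-hypo-OPC libraries and 2 in all standard OPC libraries, while the cardiac actin Actc1 and the enteric smooth-muscle actin Actg2 had 0 counts. The coding sequences of the actins are similar, so a few Acta2 reads might come from Actb or Actg1, which was not tested. The authors' counting shares ambiguous reads by estimation.

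Promoter sequence upstream of the transcription start was taken for 7 of the 10 members from RefSeq (GRCr8), without Tagln, Myl9 and Actb, which were not searched. The CArG box was searched in these windows as CC, then 6 bases that are A or T, then GG, a motif that reads the same on both strands. It was present in 1 of the 7 windows, that of Actg1, and in 1.64% of 33469 promoter windows of the same length (250 bases before to 50 after the start). With 1 other base allowed in the core, Acta2 joined Actg1, and 9.42% of all windows had a match. The 160 bases before the start are shown for Actg1 and Acta2, the members whose window held a match. Capitals mark the matches, which start at -90 in Actg1 and at -134 and -84 in Acta2, counted from the start. The Actg1 stretch is GRCr8 chr10:106120952-106121111 and the Acta2 stretch is GRCr8 chr1:241172504-241172663, both on the minus strand and written 5′ to 3′.
Actg1: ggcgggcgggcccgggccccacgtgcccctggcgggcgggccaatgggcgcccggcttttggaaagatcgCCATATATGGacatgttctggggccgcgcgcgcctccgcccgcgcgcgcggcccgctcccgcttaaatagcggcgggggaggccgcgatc
Acta2: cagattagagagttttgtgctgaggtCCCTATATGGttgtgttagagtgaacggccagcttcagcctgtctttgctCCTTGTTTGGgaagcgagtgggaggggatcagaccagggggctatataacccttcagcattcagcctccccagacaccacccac
The match in Actg1 is strict, and each of the Acta2 matches has a single base outside A and T in its core. A match of letters is a description and not a measured binding site.

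The widely expressed relatives of the smooth-muscle genes showed no called difference. Cnn3 (ENSRNOG00000011559), the acidic calponin of non-muscle cells, had 131.1, 136.1 and 146.2 CPM (lowest, median and highest) in mild-hypo-OPCs and 117.9, 145.0 and 159.2 CPM in standard OPCs. All mild-hypo-OPC libraries lay within the standard OPC range, and the log2 fold change was -0.07 (standard error 0.08, 95% interval -0.24 to 0.09, adjusted p = 0.530, edgeR). Tpm1 (ENSRNOG00000018184), the alpha-tropomyosin that muscle and non-muscle cells make as different isoforms, had 53.93, 59.24 and 63.42 CPM against 53.87, 63.78 and 83.31 CPM. Its libraries overlapped too, with standard OPC replicates 5 and 6 highest, and its log2 fold change was -0.14 (standard error 0.10, 95% interval -0.35 to 0.06, adjusted p = 0.314, edgeR). The counts are per gene, so Tpm1 isoforms are not separated here. With library size only, the direction of both genes turned and both were called higher (0.36 for Cnn3 and 0.29 for Tpm1, adjusted p = 0.00416 and 0.0339, edgeR), in a fit where the median of all genes moved to 0.43.

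The cytoplasmic actins had no called difference. Actb (ENSRNOG00000034254), the beta-actin of cell edges and processes, had 6187, 6701 and 7154 CPM (lowest, median and highest) in mild-hypo-OPCs and 5114, 5999 and 6809 CPM in standard OPCs. All 6 mild-hypo-OPC libraries were above the standard OPC mean and 2 were above every standard OPC library. The log2 fold change was 0.16 (standard error 0.09, 95% interval -0.03 to 0.34, adjusted p = 0.209, edgeR). Actg1 (ENSRNOG00000036701), the gamma-actin that differs from beta-actin in a few residues, had 2671, 2894 and 3159 CPM against 2306, 2698 and 2883 CPM. It overlapped in the same manner, with 3 mild-hypo-OPC libraries above every standard OPC library, and its log2 fold change was 0.11 (standard error 0.08, 95% interval -0.06 to 0.29, adjusted p = 0.332, edgeR). The intervals place any rise of Actb below 1.26-fold and any rise of Actg1 below 1.22-fold under this scaling. Between them the 6 standard OPC libraries gave 62000 Actb and 27275 Actg1 counts, so counting error was small beside the spread between libraries.

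**Figure D2:**
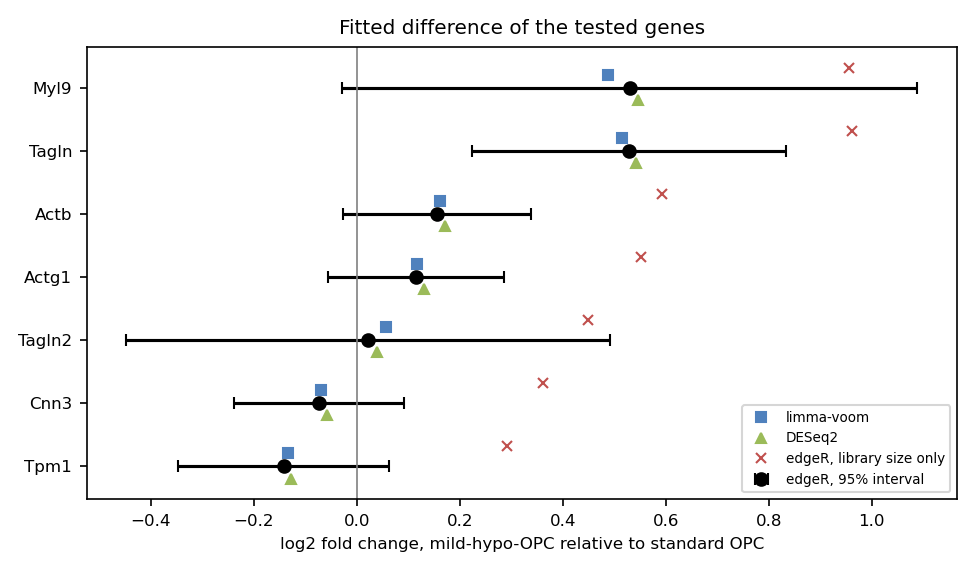
Log2 fold change of mild-hypo-OPC relative to standard OPC (horizontal axis) for the 7 tested genes, with 95% intervals from edgeR (black) and the estimates of limma-voom (squares), DESeq2 (triangles) and edgeR with library size only (crosses). The Tagln interval, 0.22 to 0.83, lies above 0, and the crosses are shifted to the right for all 7 genes.

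Counted together, 1 of the 7 tested members was called, and it was higher. Over all 8938 genes 24.0% were called, 7.00% higher and 17.0% lower, so a single called gene among 7 is not above the background. Complete separation of the libraries in TMM-scaled CPM was found for 1 member, higher, against 2.94% of all genes separated higher and 5.40% separated lower. In the lower direction 0 members were called by edgeR, limma-voom or DESeq2, and 0 were lower at an unadjusted p under 0.05 in edgeR. The median log2 fold change of the 7 tested members was 0.115, beside a median of 0.00 over all genes tested. This median leaves out Acta2, Cnn1 and Tpm2. With library size only, 5515 genes were called higher and 405 lower over the whole table, 6 members were called higher, and Tagln and Myl9 then stood furthest from the shifted median, at 0.96 for each. With the log2 total count in the model, 0 genes were called higher and 43 lower over the whole table (217 higher and 488 lower at an unadjusted p under 0.05), and no member, listed gene or cell type marker described here was called.

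A ratio of counts within a library does not depend on any scaling factor. Per 1000 Actb counts, Tagln had 4.22, 4.22, 4.24, 4.34, 4.01 and 5.85 counts in mild-hypo-OPC replicates 1 to 6 and 2.92, 3.73, 3.04, 3.99, 3.27 and 4.08 in standard OPC replicates 1 to 6. Replicates 1 to 5 of the mild-hypo-OPCs were close together, replicate 6 was higher, and 5 of 6 exceeded every standard OPC library. On the log2 scale the mean ratio of Tagln to Actb was -7.81 ± 0.198 (SD, n = 6) under mild hypoxia and -8.15 ± 0.207 (SD, n = 6) in room air, a difference of 0.34. Myl9 relative to Actb differed by 0.32, with SDs of 0.346 and 0.424 in the mild-hypo-OPC and standard groups. Tpm1 and Cnn3 lay the other way, with differences of -0.29 and -0.23, and Tpm1 spread more in standard OPCs (8.84 to 14.1 per 1000 Actb counts) than in mild-hypo-OPCs (8.27 to 9.42). Actg1 followed Actb closely, with 410 to 443 counts per 1000 Actb counts under mild hypoxia and 423 to 471 in room air. These ratios are given as a description and were not tested.

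**Figure D3:**
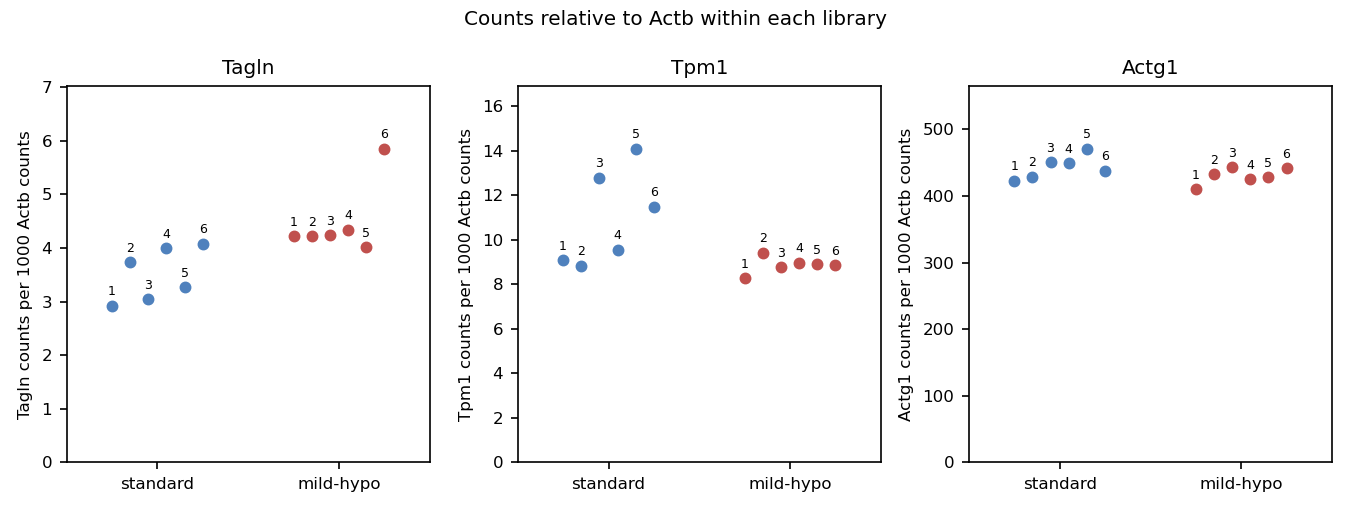
Counts of Tagln, Tpm1 and Actg1 per 1000 Actb counts (vertical axes, from 0) in each library, with replicate numbers beside the points, standard OPCs in blue and mild-hypo-OPCs in red. Tagln is lowest in standard OPC replicate 1 (2.92) and highest in mild-hypo-OPC replicate 6 (5.85), whereas Actg1 stays between 410 and 471.

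The members were also compared by how they deviated from their group means across the 12 libraries, which describes shared variation after the condition is removed. The libraries share preparation and depth within a group, and no p is given. Actb and Actg1 deviated most alike (Pearson r = 0.897), and Myl9 was closer to Actg1 (0.788) and Actb (0.683) than to Tagln (0.566). Tagln was likewise nearer to Actg1 (0.676) and Actb (0.643) than to its paralog Tagln2 (0.201) or to Tpm1 (0.036). Tagln2 and Cnn3 had the lowest value, -0.11. Without mild-hypo-OPC replicate 6, an alternative chosen after seeing the data, Tagln had 0.623 with Actb, 0.566 with Actg1 and 0.543 with Myl9.

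**Figure D4:**
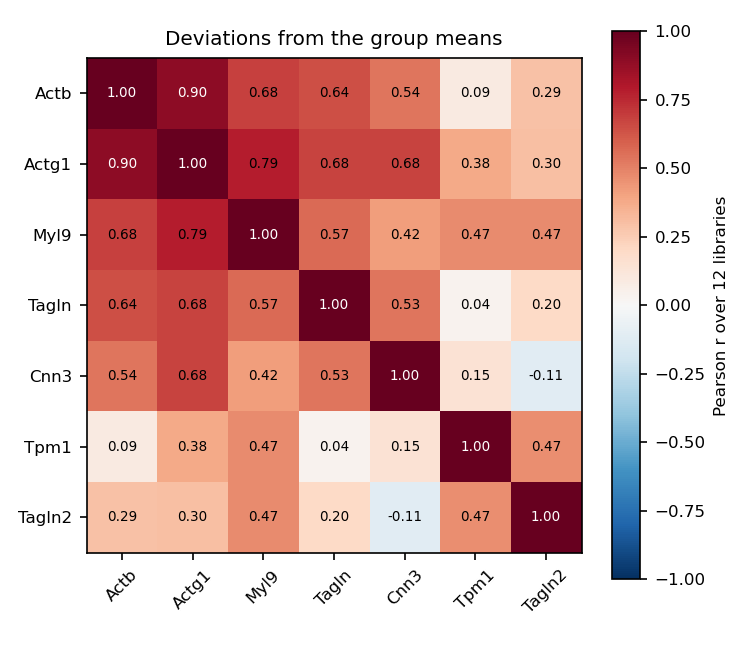
Pearson r of the deviations of log2 CPM from the group mean over 12 libraries, for each pair of the 7 tested genes (color scale from -1 to 1). Actb and Actg1 form the closest pair at 0.90, and Tagln2 and Tpm1 have lower values with most of the others.

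Among 7511 genes with at least 10 counts in every library, those that deviated most like Tagln over the 12 libraries were the Notch target Hey1 (r = 0.909), Mettl22 (0.909), Brms1 (0.889), Rabif (0.869) and Dnajb2 (0.869). Without mild-hypo-OPC replicate 6 the order did not hold, since of these 5 only Brms1 (rank 4) stayed among the first 5, and Hey1, Dnajb2, Mettl22 and Rabif took ranks 9, 14, 31 and 66. Those most like Actb were Rcan2 (0.937), the kinase co-chaperone Cdc37 (0.928), Apeh (0.922), the secreted protease Htra1 (0.914) and the intermediate filament gene Vim (0.905). Vim was itself higher in mild-hypo-OPCs, with a log2 fold change of 0.42 (adjusted p = 0.00123, edgeR), and so was Rcan2, at 0.53 (adjusted p = 0.0267, edgeR). Brms1, named for likeness to Tagln, was called lower, at -0.35 (adjusted p = 0.0081, edgeR). The rest of the named genes were not called. These genes are named for likeness of values over the 12 libraries only.

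The wider contractile programme, 32 further genes of smooth muscle, focal adhesions and SRF signalling, had 16 tested genes, of which 2 rose, 0 fell and 14 were not called by edgeR. The shares over all genes tested were 7.00% higher and 17.0% lower, and no set test was run on so short a list. No gene of the list was lower by limma-voom or DESeq2 either, and 0 were lower at an unadjusted p under 0.05. Its median log2 fold change was 0.07. Sorbs3, the focal-adhesion adaptor vinexin, rose from 9.21 ± 3.06 to 18.0 ± 1.66 CPM (SD, n = 6 each), and its log2 difference was 0.89 ± 0.17 (SE, adjusted p = 0.000742, edgeR). Tgfb1i1, the focal-adhesion protein Hic-5 that is abundant in smooth muscle, rose from 4.79 ± 1.84 to 8.26 ± 1.06 CPM (SD, n = 6 each), and its log2 difference was 0.75 ± 0.23 (SE, adjusted p = 0.0238, edgeR). With this mean and SD in room air, no standard OPC library can have passed the filter. The place of Tgfb1i1 among the tested genes therefore depended on the group where it was higher, which limits its call. Tgfb1i1 did not pass when standard OPC replicate 5 or 6 was left out (highest adjusted p = 0.0624, edgeR), whereas Sorbs3 was called in all 12 such fits. Both lost the call in replicates 1 to 3 alone, and with the log2 total count in the model (adjusted p = 0.717 for Tgfb1i1 and 0.734 for Sorbs3, edgeR). Tgfb1i1 also lost it when all libraries were thinned to the smallest total. Scaled by library size only, 14 of the 16 were called higher and 0 lower. Srf itself (0.01, adjusted p = 0.941, edgeR) and its coactivators Mrtfa (-0.21, adjusted p = 0.386) and Mrtfb (0.29, adjusted p = 0.289) were not called.

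Several smooth-muscle genes of this list were below the filter and were not tested. Myh11, the smooth-muscle myosin heavy chain, had 5 to 13 counts a library under mild hypoxia and 0 to 5 in room air. Scaled for depth, its means were 1.46 and 1.41 CPM. Des, Lmod1 and the coactivator Myocd had at most 2 counts in any library. Mylk, the kinase that phosphorylates Myl9, had 8 to 24 and 1 to 6 counts, with means of 2.19 and 2.39 CPM. Csrp2 had a mean of 1.23 CPM under mild hypoxia and 2.26 in room air. Smtn, which encodes smoothelin of contractile smooth muscle, had 25 to 46 counts a library under mild hypoxia and 4 to 8 in room air, or 5.08 ± 0.512 and 3.16 ± 0.337 CPM (SD, n = 6 each).

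Of 19 tested genes for other tropomyosins, actinins, non-muscle myosin II and its regulators, 2 rose, 3 fell and 14 were not called, with a median log2 fold change of 0.05. The shares over all genes tested were 7.00% higher and 17.0% lower. Myl6, the essential light chain that pairs with regulatory chains such as Myl9, fell from 274 ± 39.5 to 197 ± 18.0 CPM (SD, n = 6 each), and its log2 difference was -0.47 ± 0.09 (SE, adjusted p = 0.00144, edgeR). Rhoc fell by 0.41 on the log2 scale and Rhob fell by 1.36. Rhob had 1 to 120 counts in the standard OPC libraries and was not called by limma-voom or DESeq2 (adjusted p = 0.136 and 0.105). Without standard OPC replicate 1 its log2 fold change was -0.98. Myo1d, an unconventional myosin of oligodendrocytes, rose by 0.74 and Lasp1 by 0.24, and Lasp1 lost its call in 5 of the 12 fits without 1 library and in limma-voom (0.0538 after adjustment). Scaled by library size only, 16 of the 19 were called higher and 1 lower, Myl6 was at -0.03 and Rhoc turned to 0.03. The non-muscle heavy chains Myh9 (-0.06) and Myh10 (0.05) and the tropomyosins Tpm3 (0.13) and Tpm4 (-0.01) were not called (adjusted p = 0.796, 0.819, 0.233 and 0.937, edgeR).

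Of 50 tested genes for actin filament turnover and branching, 2 rose, 13 fell and 35 were not called, with a median log2 fold change of -0.06. Over all genes 7.00% were called higher and 17.0% lower. The monomer-binding thymosins Tmsb10 and Tmsb4x fell by 0.95 and 0.90 on the log2 scale (adjusted p = 0.000143 and 0.000498, edgeR), Tmsb10 from 279 ± 58.5 to 144 ± 19.9 CPM (SD, n = 6 each). Arpc5l, a subunit of the branching Arp2/3 complex, fell by 1.22 and Brk1, a subunit of the WAVE complex that activates it, by 0.68. The bundling protein Fscn1 and the branch-stabilizing protein Cttn rose by 0.33 and 0.29. Tmsb10, Tmsb4x, Arpc5l, Brk1, Fscn1 and Cttn were each called without any 1 of the 12 libraries. In replicates 1 to 3 alone, Tmsb4x, Brk1, Fscn1 and Cttn lost the call. Of the other genes called lower, Pfn1, Cfl2, Coro1b and Arpc4 kept it in only 4, 5, 5 and 3 of the 12 fits without 1 library. Pfn1, Coro1b and Arpc4 also lost it when all libraries were thinned to the smallest total. With the log2 total count in the model 0 of the 50 genes were called, and 2 were lower at an unadjusted p under 0.05. With library size only, 34 were called higher and 3 lower, against the median of 0.43 for all genes. Those 3 were Arpc5l, Tmsb10 and Tmsb4x, at -0.78, -0.50 and -0.46. Brk1, Arpc1a and Arpc3 were also negative (-0.24, -0.14 and -0.03) but were no longer called.

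**Figure D5:**
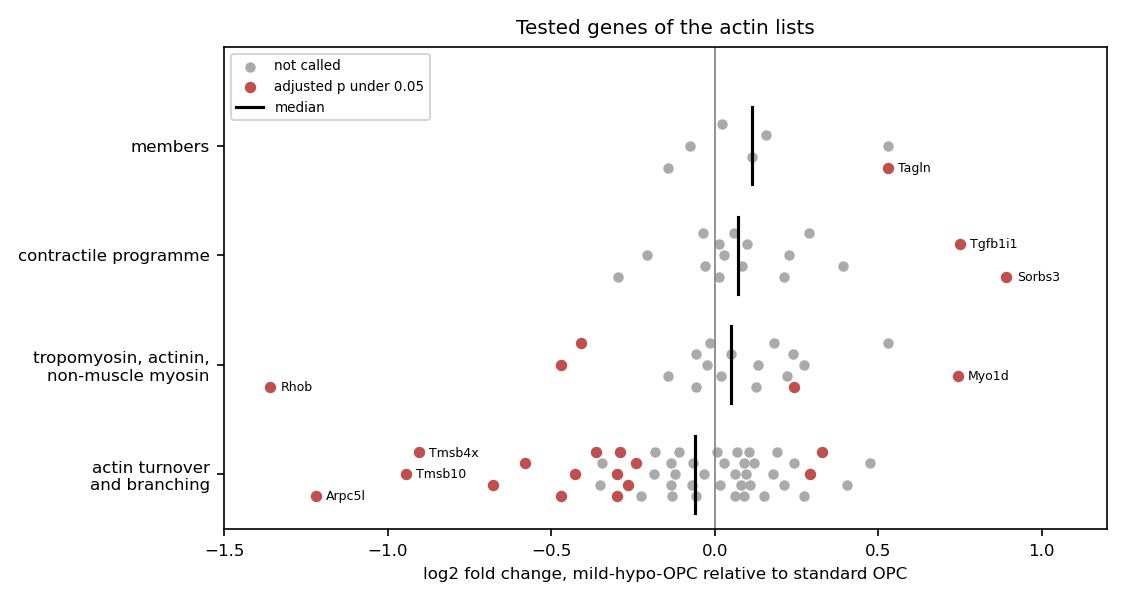
Log2 fold change (horizontal axis) of the tested genes among the members and in 3 lists of related genes, red where the adjusted p is under 0.05 in edgeR, with black lines at the medians. The 7 tested members have 1 red point, Tagln, and the turnover and branching list has 13 red points below 0 and 2 above it.

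Markers of the cell types that could carry contractile genes into the culture were examined beside Tagln. Of 12 mural and smooth-muscle markers, 11 were matched by symbol and 1 was tested, Mcam, which also occurs outside mural cells and rose with a log2 difference of 0.46 ± 0.13 (SE, adjusted p = 0.0127, edgeR). The Mcam call was lost in replicates 1 to 3 alone and with the log2 total count in the model (adjusted p = 0.970, edgeR). The summed level of the list was 31.3 to 55.4 CPM in room air and 53.3 to 62.8 CPM under mild hypoxia, most of it from Mcam. The pericyte genes Rgs5 and Abcc9 had 0 counts in all 12 libraries, Kcnj8 and Vtn had at most 1 count in any library, and Pdgfrb had 2 to 6 counts in mild-hypo-OPC libraries and 0 in standard OPC libraries. The mean Pdgfrb level in mild-hypo-OPCs, 0.558 CPM, lies below the floor of every standard OPC library. That floor holds for a single library, and the counts of Pdgfrb pooled over libraries were not tested.

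Of 20 fibroblast and meningeal markers 5 were tested, of which 0 rose and 1 fell, Igfbp2 (-0.43, adjusted p = 0.0282, edgeR). Among all genes tested 7.00% rose and 17.0% fell. The Igfbp2 call was lost in 9 of the 12 fits without 1 library and in limma-voom (adjusted p = 0.0504), and 0 genes rose in limma-voom and DESeq2 while 1 was higher at an unadjusted p under 0.05 in edgeR. The summed level was 102 to 147 CPM in room air and 110 to 134 CPM under mild hypoxia. Col1a1 reached at most 9 counts, Col1a2 3 and Col3a1 4 in any library, and Lum had 0 counts in all. Among the other tested markers of this list Fn1, fibronectin, was at 0.60 (adjusted p = 0.0991, edgeR) and Timp1 at 0.46 (adjusted p = 0.143, edgeR). Col5a1 was at -0.08 and Prrx1 at -0.07 (adjusted p = 0.851 and 0.825, edgeR). The median of the 5 tested markers was -0.07. Below the filter, Postn had a mean of 3.70 CPM under mild hypoxia and 1.34 in room air, Mmp2 had 3.46 and 1.92, and S100a4 had 1.99 and 4.92. No endothelial marker of 11 listed passed the filter, with a summed level of at most 6.66 CPM, and Cdh5, Tek and Emcn had 0 counts.

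Glial markers were called in both directions, beside 7.00% of all genes tested called higher and 17.0% called lower. Of 9 tested astrocyte markers 2 rose and 1 fell, with Aqp4 at a log2 fold change of 0.79 (adjusted p = 0.000287, edgeR), Slc1a3 at 0.25 and S100b at -0.46, and the summed level was 839 to 933 CPM in room air and 877 to 1020 CPM under mild hypoxia. Of 7 tested microglial markers 3 rose (Csf1r, C1qb and Cd68) and 1 fell (Tyrobp), and the summed level was 83.7 to 158 CPM and 106 to 172 CPM. The calls of Csf1r, C1qb and Cd68 were lost in 3, 6 and 2 of the 12 fits without 1 library, while Tyrobp was called in all 12. All of these calls, Tyrobp included, were lost in replicates 1 to 3 alone and when libraries were thinned to the smallest total. Tyrobp also lost its call in replicates 4 to 6 alone. Scaled by library size only, 6 of the 9 astrocyte, 5 of the 7 microglial and 2 of the 5 fibroblast markers were called higher and 0 lower, and Igfbp2 turned to 0.02. The part of these cells in the Tagln difference was not tested.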

How the data were processed

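Bulk RNA-seq libraries from mild-hypo-OPCs (6) and standard OPCs (6) were grouped by their titles. The authors trimmed reads with Trimmomatic 0.36, checked them with FastQC 0.11.9, aligned them to the rat genome mRatBN7.2 with STAR 2.7.9a and estimated gene counts with RSEM 1.3.3. The deposited values are unnormalized counts in whole numbers for each Ensembl gene, and how the estimates were made whole is not given in the sources used here. Reads shared by paralogs are divided by estimation, which can move counts between actin genes.

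Counts were analysed in R 4.3.3 with edgeR 4.0.16. Genes that passed 10 CPM in any 1 library entered a model of the condition alone (TMM, glmQLFit, glmQLFTest), and p-values were adjusted over all of them by Benjamini-Hochberg. Standard errors are those implied by the F statistic. The study used limma-voom with this filter, here an alternative (limma 3.58.1), as were DESeq2 1.42.0, other scalings and filters, a replicate block, subsets of replicates, total count as a covariate, thinning and leaving out each library. Likeness used log2 CPM with a prior count of 2, and ratios added 0.5 to each count. Total counts, 1356079 to 9022324, set the precision, and 3 counts were the floor. Pairs of libraries in a group differed beyond sampling noise (3.22 to 19.7 as chi-square over its degrees of freedom), and 0 columns were left unused.

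The members and lists were chosen with earlier results of these data known. The text names all members, the called genes of each list (at most 4 per direction), the called or 0-count markers and the 5 genes most like Tagln and Actb. Genes below the filter and uncalled genes of the lists were named after their values were seen. So were Pfn1, Cfl2, Coro1b, Arpc1a, Arpc3 and Arpc4, which were called lower. Promoters are RefSeq GRCr8.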

Additional observations from a re-analysis of the deposited data

Results flagged for a closer look

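Of 26 group values examined (7 genes in CPM and 6 as log2 ratios to Actb, in each group), 3 had a library far from the rest of its group, where chance flags about 1 in 20. Tagln in mild-hypo-OPC replicate 6 was at 41.9 CPM, above the other 5 libraries of its group. Its log2 ratio to Actb in that library was -7.41, also the highest of the group. The log2 ratio of Cnn3 to Actb in mild-hypo-OPC replicate 2 was -5.49, above the other 5.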

How the results depend on the processing

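The count of members called higher, 1, was moved by 4 of the 25 alternatives. It was 6 with library size only, and 0 in replicates 1 to 3, in replicates 4 to 6 and with the log2 total count in the model. Without each library in turn it was 1 to 1. The count called lower was 0 in all 25. Tagln kept its direction in 25 alternatives and its call in 22, with log2 fold changes from 0.44 to 0.96. The sign turned for Tagln2 without mild-hypo-OPC replicate 6 (-0.03) and without standard OPC replicate 1 (-0.03), 3 (-0.05) or 4 (-0.10), and its range without each library was -0.10 to 0.14. It turned for Cnn3 and Tpm1 with library size only (0.36 and 0.29) and with the log2 total count in the model (0.0904 and 0.129). With library size only Myl9, Actb and Actg1 were also called higher (0.96, 0.59 and 0.55). The cause was not tested. Directions of Myl9, Actb and Actg1 held in every alternative that gave a value. The filter of 10 counts in every library leaves out Tagln2 and Myl9, and replicates 1 to 3 leave out Myl9.

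The labels do not say whether same-numbered libraries share a culture. Their deviations correlated with r from -0.276 to 0.296, above 0.1 in 2 of 6 pairs. Of the libraries, 1 mild-hypo-OPC and 2 standard OPC libraries correlated best with their own number. Correlations of so few libraries cannot decide whether the numbers mark pairs. With the replicate block 1 member was called, Tagln at 0.51, and all genes gave 572 higher and 1471 lower calls. In that fit Tgfb1i1, Bcan and Nkx2-2 were not called, 2 OPC markers were called higher, and 1 fibroblast marker was called higher where the fit without the block had 0. Ratios to Gapdh were not run, since no row was matched to that symbol. Depth limits Acta2, Cnn1 and Tpm2, whose counts do not resolve a change of the size fitted for Tagln.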
